A study of Homo sapiens with 6 samples.

Results

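The ISG15 conjugation and removal system is a set of 6 genes: ISG15, UBA7, UBE2L6, HERC5, HERC6 and USP18. They were read through probe sets, the groups of short oligonucleotides that an array uses to measure a transcript, and only probe sets annotated with exactly 1 gene symbol were kept. This left 5 of the 6 genes, on 6 probe sets, among 19775 genes on the array. Both probe sets of UBA7 are annotated with the microRNA gene MIR5193 as well, so UBA7 itself has no value here and its shared probe sets are given apart.

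Expression was measured in HT29, an established human colorectal adenocarcinoma line. Each of 3 cultures received a polyphenolic cocoa extract (500 µg, without a stated volume) and 3 were controls, described as untreated in the sample titles and as given saline in the protocol. All were plated at 300000 cells, and RNA was taken at 24 h and hybridised to 1 Affymetrix U133 Plus 2.0 array per culture. The question was which transcripts had changed after a day with the extract. The model is 1 tumour line, and nothing states that the cultures of a group were independent experiments, so the p-values reflect no more than the spread among the cultures used. An array reads a whole culture, so a change in every cell and a change in the share of cells that respond cannot be told apart.

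ISG15 is a small protein built from a pair of ubiquitin-like folds that is joined to other proteins after interferon exposure. The joining follows the scheme used for ubiquitin: UBA7 activates ISG15, UBE2L6 carries it, and a ligase, mainly HERC5 in human cells, passes it to newly made proteins. USP18 cuts ISG15 off again and, apart from that activity, binds the IFNAR2 receptor chain and dampens type I interferon signalling. HERC6 is the closest relative of HERC5 and is the main ISG15 ligase of the mouse. In epithelia, including that of the gut, these genes are classic targets of interferon, whose transcription factors bind the interferon-stimulated response element.

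Because that element is the known common input of these genes, the 250 bases before the annotated start sites of ISG15, HERC5, HERC6 and UBE2L6 are shown, from the RefSeq table of build GRCh38.p14. Each is written 5′ to 3′ on the strand of the gene, and capitals mark matches, on either strand, to the core of that element (GAAA, then any 2 bases, then GAAA).
ISG15, chr1:1013247-1013496, plus strand: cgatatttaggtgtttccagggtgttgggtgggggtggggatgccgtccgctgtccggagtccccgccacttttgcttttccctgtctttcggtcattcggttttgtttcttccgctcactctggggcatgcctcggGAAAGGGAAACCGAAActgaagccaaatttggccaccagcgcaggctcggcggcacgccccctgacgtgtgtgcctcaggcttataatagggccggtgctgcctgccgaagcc
HERC5, chr4:88456869-88457118, plus strand: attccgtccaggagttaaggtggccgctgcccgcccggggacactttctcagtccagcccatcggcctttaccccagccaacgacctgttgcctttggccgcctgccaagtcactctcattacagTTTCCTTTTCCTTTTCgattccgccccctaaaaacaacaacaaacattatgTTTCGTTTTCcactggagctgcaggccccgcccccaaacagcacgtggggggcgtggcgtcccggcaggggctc
HERC6, chr4:88378602-88378851, plus strand: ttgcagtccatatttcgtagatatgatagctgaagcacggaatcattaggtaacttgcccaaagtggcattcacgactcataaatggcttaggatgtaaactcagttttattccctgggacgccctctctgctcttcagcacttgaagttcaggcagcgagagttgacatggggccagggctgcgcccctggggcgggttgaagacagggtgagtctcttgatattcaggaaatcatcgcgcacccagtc
UBE2L6, chr11:57567936-57568185, minus strand: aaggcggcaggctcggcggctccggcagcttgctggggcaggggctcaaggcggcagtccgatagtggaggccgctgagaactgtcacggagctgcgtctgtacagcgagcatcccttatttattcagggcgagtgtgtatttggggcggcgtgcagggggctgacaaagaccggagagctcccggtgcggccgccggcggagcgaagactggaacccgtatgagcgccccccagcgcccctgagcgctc

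Windows were found for 4 of the 6 genes, with 2 start sites for UBE2L6, of which the more upstream one is shown. ISG15 held 2 overlapping matches on its own strand, at −113 to −104 and −107 to −98 from the start. HERC5 held 3 on the opposite strand, an overlapping pair at −125 to −116 and −119 to −110 and one at −74 to −65. HERC6 and both windows of UBE2L6 held none. Of 35116 such windows in the table, 3.02% held at least 1 match and 0.225% at least 2. The core of STAT sites (TTC, any 3 bases, GAA), which reads the same on both strands, was in none of these windows and in 6.57% of all windows. A match is a description of letters, and a window without one says nothing about sites elsewhere.

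**Figure D1:**
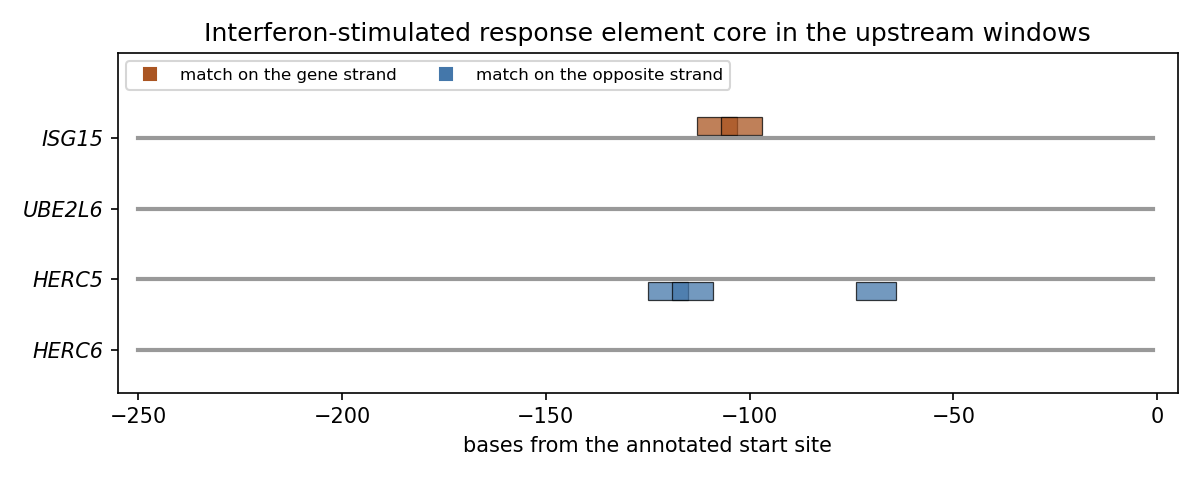
Positions of matches to the response element core (GAAA, 2 bases, GAAA) in the 250 bases upstream of the start sites of 4 genes; the x axis is the distance in bases from the annotated start and colours give the strand. ISG15 and HERC5 hold 2 and 3 matches, and the lines of HERC6 and UBE2L6 (both of its windows) are empty.

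All 5 measured genes were higher with cocoa extract. UBE2L6, the carrier enzyme, rose 4.67-fold, USP18, the protease that removes ISG15, 2.46-fold, ISG15 itself 2.30-fold, HERC6 2.13-fold and HERC5, the human ligase, 1.81-fold. Of all genes, 7.36% were higher by the same criterion, which was an adjusted p (Benjamini-Hochberg, limma, 19775 genes) under 0.05, and 13.5% changed in either direction. The median difference of the 5 was 1.20 on the log2 scale, against −0.012 over all genes. In all 5 every cocoa array lay above every control array, as it did in 15.4% of genes.

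The deposited log2 values had been shifted so that every probe set has its median over the arrays at 0. They give differences between arrays and no levels, and where the groups do not overlap the highest control and the lowest cocoa value are mirror images of each other by that centring. How far each probe set compresses a change cannot be judged without levels.

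ISG15, the modifier, read −0.43, −0.75 and −0.78 in control arrays 1 to 3 and 0.43, 0.61 and 0.62 in cocoa arrays 1 to 3. The groups were far apart, and control array 1 and cocoa array 1 were the nearest to each other. The log2 difference was 1.20 (SE 0.10, 95% interval 0.97 to 1.43, n = 3 per group, limma adjusted p = 0.000165), which placed ISG15 63rd among 19775 genes by size of increase. Its single probe set, 205483_s_at, has a suffix that marks possible matches to several transcripts.

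UBE2L6 had the largest difference. Its values were −0.82, −1.25 and −1.18 in the controls and 0.82, 1.24 and 1.38 with cocoa. Control array 1 was again the highest control and cocoa array 1 the lowest cocoa array, with a gap of 1.63 between them. The log2 difference of 2.22 (SE 0.15, 95% interval 1.88 to 2.57, n = 3 per group, limma adjusted p = 4.97e-05) was the 12th largest increase on the array.

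The 2 probe sets annotated with both UBA7, the activating enzyme, and MIR5193 were also higher with cocoa, without being assignable to either gene. The first, 203281_s_at, read −0.18, −0.44 and −0.32 in the controls and 0.18, 0.44 and 0.50 with cocoa. The second, 1294_at, read −0.42, −0.11 and −0.36 in the controls and 0.11, 0.43 and 0.40 with cocoa. The groups overlapped in neither, and cocoa arrays lay wholly above the controls in 15.4% of genes. The log2 differences were 0.68 (SE 0.11) and 0.61 (SE 0.12), with limma adjusted p-values over 54613 probe sets of 0.00894 and 0.0187, where 4.68% of probe sets were higher. The call of 1294_at was lost without cocoa array 2 or 3 or control array 1 or 3 (adjusted p up to 0.0756), and that of 203281_s_at without control array 2 (0.0501).

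HERC5 had the widest spread. It read −0.21, −0.66 and −0.39 in the controls and 0.22, 0.21 and 0.87 with cocoa, so that cocoa array 3 stood well above the other cocoa arrays, which lay close together. The log2 difference was 0.86 (SE 0.18, 95% interval 0.46 to 1.25, n = 3 per group, limma adjusted p = 0.0126). Without cocoa array 3 it was 0.64 (adjusted p = 0.0161), and without control array 2 it was 0.74 and no longer passed (0.0541). Over probe sets its adjusted p was 0.0272, and it did not pass without control array 1 (0.0514), 2 (0.114) or 3 (0.0764).

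The 2 probe sets of HERC6 disagreed. On 219352_at the controls read −0.82, −0.83 and −1.04 and the cocoa arrays 0.82, 1.40 and 1.27, a log2 difference of 2.06 (SE 0.15, limma adjusted p = 0.000309 over probe sets), or 4.17-fold. On 1563659_at the controls read −0.037, 0.037 and −0.013 and the cocoa arrays 0.39, −0.038 and 0.013. There the groups overlapped, only cocoa array 1 was raised, and the difference of 0.13 (SE 0.12, 95% interval −0.14 to 0.39) did not pass (adjusted p = 0.61). The value of the gene, a log2 difference of 1.09 (SE 0.066, adjusted p = 2.51e-05 over genes), is the mean of these 2 unlike readings, and its size rests on the first. Its small SE does not. Cocoa array 1 was the lowest cocoa array on the first probe set and the highest on the second. The SD of the cocoa arrays was therefore 0.038 for the mean, against 0.30 and 0.23 on the probe sets.

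USP18, which removes ISG15, read −0.49, −0.85 and −0.68 in the controls and 0.49, 0.67 and 0.72 with cocoa. As in ISG15 and UBE2L6, control array 1 was the highest control and cocoa array 1 the lowest cocoa array. The log2 difference was 1.30 (SE 0.10, 95% interval 1.07 to 1.52, n = 3 per group, limma adjusted p = 9.29e-05), the 57th largest increase.

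**Figure D2:**
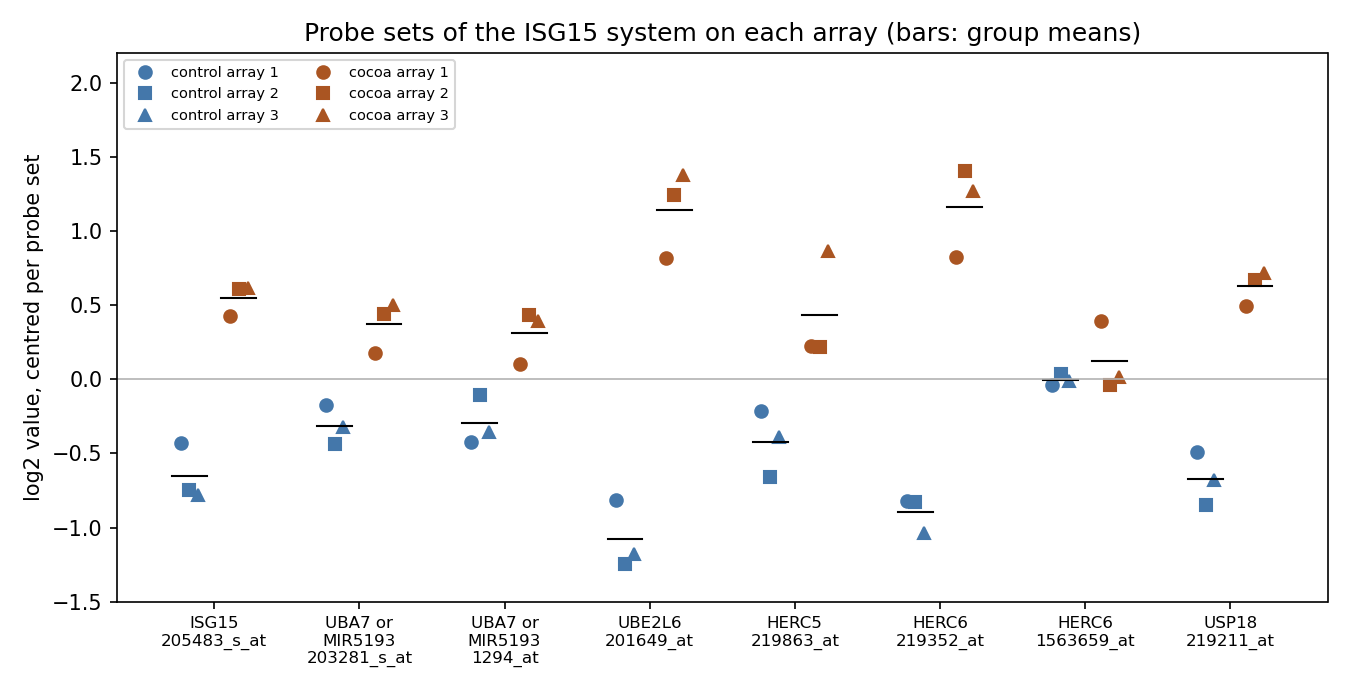
Centred log2 values (y axis) of the 6 probe sets of the ISG15 system and of the 2 shared by UBA7 and MIR5193 on each of the 6 arrays; symbols give the array, colours the group and bars the group means. Cocoa and control arrays are separate on every probe set except 1563659_at of HERC6, where the groups overlap. The groups were separate in 6417 of the 19775 single genes, and the share over all probe sets was not counted.

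Within a group the full order of the arrays differed among the genes, but the same array was often the extreme one. Control array 1 was the highest control in 4 of the 5 genes and cocoa array 1 the lowest cocoa array in 4 of 5. For HERC6 the latter holds for the mean and on 219352_at, while cocoa array 1 was the highest on 1563659_at. How many of all genes share these extremes was not counted. Averaged over the 5 genes, the controls read −0.48, −0.78 and −0.71 and the cocoa arrays 0.51, 0.68 and 0.84. The signal of the 18S ribosomal RNA control probe sets was also unequal, at −0.51, 3.31 and 1.40 on cocoa arrays 1 to 3 and between −1.12 and 0.51 on the controls. The actin and GAPDH signal at the 5′ end minus that at the 3′ end was 0.032, −0.26 and −0.052 on cocoa arrays 1 to 3 and 0.009 to 0.033 on the controls. When the fit took the 18S signal into account, 4 of the 5 genes stayed past the threshold, and HERC5 had a difference of 0.94 with an adjusted p of 0.0526. With the 5′ to 3′ signal all 5 stayed. ISG15, UBE2L6, HERC6 and USP18 also passed in all 6 refits on 5 arrays, with adjusted p-values of at most 0.0014.

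**Figure D3:**
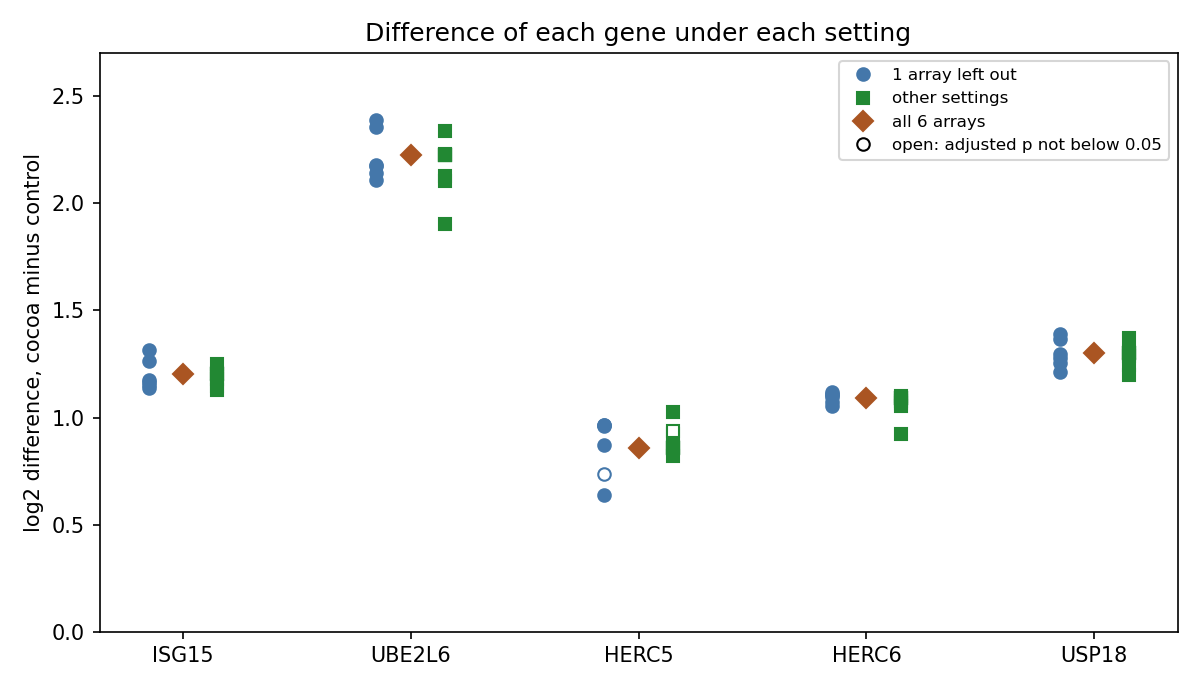
Log2 difference between cocoa and control (y axis) of each of the 5 genes with all 6 arrays, with 1 array left out and under the other settings; open symbols did not pass an adjusted p of 0.05. UBE2L6 lies above the other 4 genes throughout, and the only open symbols belong to HERC5.

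The differences of the 5 genes were compared in 10 pairs, from the difference between 2 genes on each array. UBE2L6 rose more than USP18 by 0.92 on the log2 scale (95% interval 0.61 to 1.24), more than ISG15 by 1.02 (0.71 to 1.34), more than HERC6 by 1.13 (0.56 to 1.70) and more than HERC5 by 1.37 (0.89 to 1.85). In these 4 pairs the interval did not include 0. In these and in HERC5 against USP18, 5 pairs in all, the groups did not overlap, and the exact two-sided permutation p was 0.1 in each, the smallest that 3 against 3 arrays can give, and 0.2 after Benjamini-Hochberg adjustment over the 10 pairs. The interval included 0 in the 6 pairs without UBE2L6 (exact p 0.1 to 0.5), as for USP18 minus ISG15 (0.098, −0.075 to 0.27) and USP18 minus HERC5 (0.44, −0.067 to 0.95). By the intervals the order below UBE2L6, which was USP18, ISG15, HERC6 and HERC5, is thus not resolved. The permutation test could not resolve the first place of UBE2L6 either, since its smallest possible p was 0.1. The genes are also read on different probe sets, whose compression of a change cannot be judged. On 219352_at alone HERC6 had a difference of 2.06, near the 2.22 of UBE2L6.

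Each gene was set beside the other members of its enzyme class. In 113 such genes, 8 rose and 7 fell (13.3% called against 13.5% of all genes, of which 7.36% were higher and 6.12% lower), with a median log2 difference of −0.021, and 2 of the 15 calls were kept in every fit without 1 array. The fit with the 18S covariate kept 1 of the 15, that with the 5′ to 3′ covariate 1 and that with the replicate number as a block 6. Of 27 other conjugating enzymes none rose and 4 fell (14.8% called). These were UBE2J2 (−0.33, SE 0.072) and UBE2G2 (−0.32, SE 0.086) of protein quality control at the endoplasmic reticulum, ATG3 (−0.28, SE 0.076), which joins ATG8 proteins to lipid, and UBE2G1 (−0.21, SE 0.060). The calls of all 4 were lost without control array 2 (adjusted p 0.0817 to 0.18), and each passed in at most 2 of the 6 fits without 1 array. No probe set of UBE2G2 or ATG3 passed over probe sets. UBE2G1 passed on 226005_at (−0.38), while its groups overlapped on 209141_at (−0.035). UBE2L6 rose more than the mean of the 27 by 2.29 (95% interval 1.64 to 2.95). Of 7 other activating enzymes 1 fell (14.3% called), ATG7 of autophagy (−0.27, SE 0.076). Its call was lost in all 6 refits on 5 arrays (adjusted p 0.0632 to 0.146). Its 4 probe sets ran from −0.70 on 1569827_at, the only one that passed, to 0.040 on 218673_s_at, where the groups overlapped. UBA1, the main activator of ubiquitin, had a difference of −0.016 (SE 0.072).

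Of 22 other HECT ligases, the class of HERC5 and HERC6, HACE1 (0.42, SE 0.082) and WWP1 (0.27, SE 0.074) rose and none fell. The share called was 9.09%, against 13.5% of all genes. WWP1 passed in 1 of the 6 refits on 5 arrays (adjusted p 0.0414 to 0.134), and neither of its probe sets passed over probe sets (limma adjusted p 0.134 and 0.135). HACE1 passed in every refit (0.0175 to 0.0362) and not with the 18S signal (0.0785) or the 5′ to 3′ signal (0.0593) as a covariate. The relatives HERC1, HERC2 and HERC4 had differences of 0.053 (SE 0.078), 0.023 (SE 0.088) and −0.018 (SE 0.075). HERC5 exceeded the mean of the 22 by 0.83 (95% interval 0.092 to 1.56) and HERC6 by 1.06 (0.89 to 1.23). The interval of HERC6 is that of a mean of 2 unlike probe sets, which varied less among the cocoa arrays than either.

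Of 45 other ubiquitin-specific proteases 3 rose and 2 fell (11.1% called against 13.5% of all genes). USP30 of mitochondria (0.31, SE 0.077), USP40 (0.30, SE 0.064) and USP11 (0.23, SE 0.064) rose, and USP39, a spliceosome factor (−0.28, SE 0.068), and USP16 (−0.26, SE 0.071) fell. None of the 5 calls was kept in every fit without 1 array. USP30 rose through 1 of its 2 probe sets, 227572_at (0.43), while on 223602_at (0.19) the groups overlapped. Neither probe set of USP40 passed over probe sets (limma adjusted p 0.0506 and 0.0513). USP18 exceeded the mean of the 45 by 1.31 (95% interval 0.94 to 1.69). Of 12 other ubiquitin-like modifiers 3 rose and 9 did not pass (25% called against 13.5% of all genes). The 3 are of the ATG8 family that marks autophagy membranes: GABARAPL1 (0.82, SE 0.077, adjusted p = 0.00028), GABARAP (0.33, SE 0.075) and MAP1LC3B (0.26, SE 0.061). GABARAPL1 passed in every fit without 1 array. GABARAP passed in 3 of the 6 and MAP1LC3B in 2, with the highest adjusted p without control array 2 (0.0786 and 0.107). Neither GABARAP nor MAP1LC3B passed with the 18S covariate (0.079 and 0.0981) or the 5′ to 3′ covariate (0.079 and 0.0867). UBB, a ubiquitin gene, had a difference of 0.085 (SE 0.068). ISG15 exceeded the mean of the 12 by 1.09 (95% interval 0.70 to 1.48). GABARAPL1 is a mean of 2 probe sets, and on 208869_s_at alone its difference of 1.21 equalled the 1.20 of ISG15. In each of these 5 comparisons of a gene with its class the exact permutation p was 0.1, the smallest possible, and 0.1 after adjustment over the 5.

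**Figure D4:**
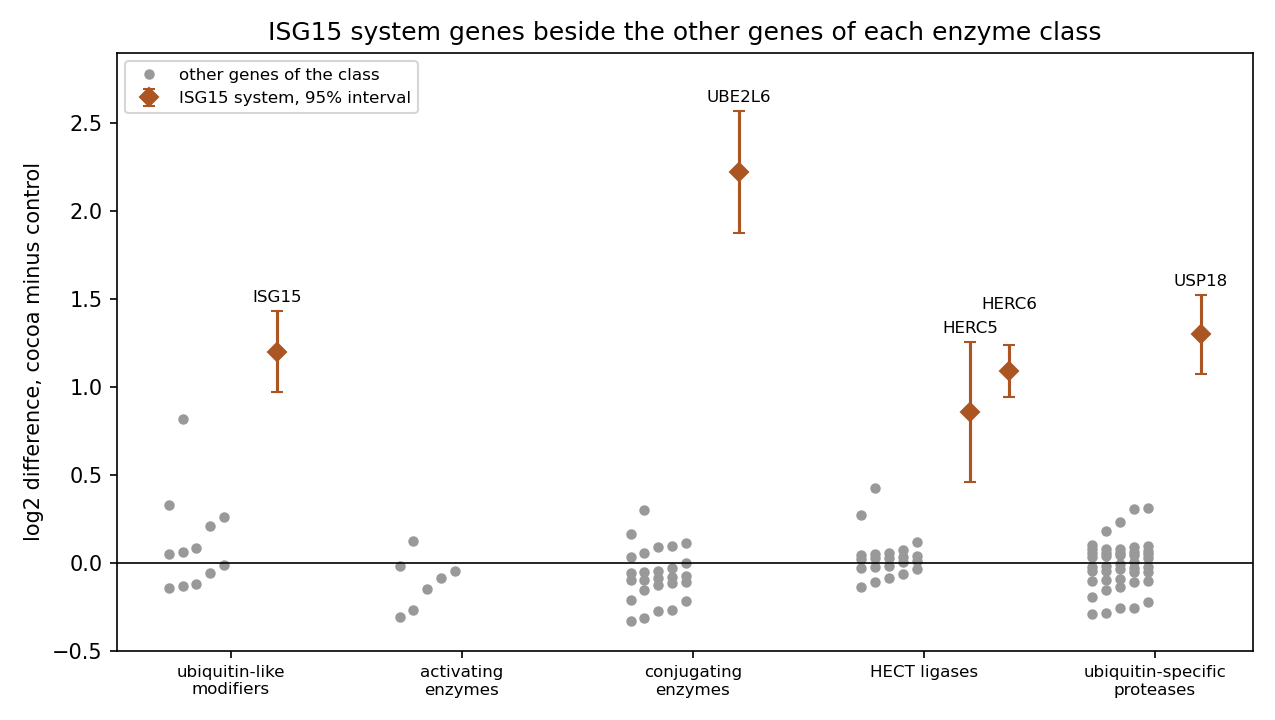
Log2 difference between cocoa and control (y axis) of the ISG15 system genes, with 95% intervals, beside each other measured gene of 5 classes (grey points). UBE2L6, HERC5, HERC6, USP18 and ISG15 lie above every grey point of their class, the highest of which are 0.30, 0.42, 0.42, 0.31 and 0.82 in that order. Each point is a mean over the probe sets of a gene. The 0.82 is GABARAPL1, which had 1.21 on 1 of its 2 probe sets, beside 1.20 for ISG15.

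Of 11 measured genes for other proteins reported to join, remove or bind ISG15, 1 rose and 1 fell, a share called of 18.2% against 13.5% of all genes. The ligase TRIM25 rose by 0.24 (SE 0.063, adjusted p = 0.0361), through 1 of its 2 probe sets (0.51, against −0.030). USP16, reported to cleave ISG15, is the one that fell. Each passed in 1 of the 6 refits on 5 arrays (adjusted p up to 0.113 and 0.138), and neither with the covariates or the replicate block. The ligase ARIH1 had a difference of −0.030 (SE 0.077). This is a mean of 6 probe sets that ran from −0.40 on 201881_s_at, which passed, to 0.32 on 1558401_at. ITGAL and ITGB2, the chains of the surface receptor for free ISG15, had 0.005 (SE 0.078) and 0.006 (SE 0.074).

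Among 17 measured proteins reported to carry ISG15, 8 rose and 1 fell, with a median of 0.24. The share called was 52.9%, against 13.5% of all genes. The largest rises were in antiviral genes that are themselves interferon targets: IFIT1, which binds foreign RNA (2.52, SE 0.13), MX1, a GTPase (2.18, SE 0.097), IFIT3 (1.65, SE 0.11) and RIGI, a sensor of viral RNA (1.59, SE 0.076). EIF2AK2, the kinase PKR, rose by 0.86 (SE 0.089) and CHMP5, a membrane scission protein, by 0.54 (SE 0.070). These 6 passed in each fit without 1 array, and the other 3 calls did not. The one that fell was EIF4E2, a cap-binding protein (−0.30, SE 0.066). The list was drawn up with the rise of antiviral genes in these samples known, so its count is not independent evidence.

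Of 13 genes of interferon reception and its control, 3 rose and 1 fell (30.8% called against 13.5% of all genes). Of the 4 calls, 1, that of IRF9, was kept in every fit without 1 array, and 1 with the 18S covariate. IRF9, the DNA-binding part of the factor that acts on the response element, read −0.46, −0.66 and −0.79 in the controls and 0.56, 0.46 and 0.69 with cocoa. Its log2 difference of 1.21 (SE 0.097, limma adjusted p = 0.000115) was near that of ISG15. The chains of the interferon lambda receptor, IL10RB (0.35, SE 0.081) and IFNLR1 (0.30, SE 0.075), rose as well, but each passed in only 2 of the 6 refits on 5 arrays (adjusted p up to 0.0979 and 0.123). IFNLR1 rose through 1 of its 2 probe sets, 244261_at (0.62), while on 1555499_a_at the groups overlapped (−0.016, adjusted p = 0.963). IFNAR2, the partner of USP18, had a difference of 0.20 (SE 0.070, adjusted p = 0.0932).

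SKP2, a ubiquitin ligase subunit reported to target USP18 for breakdown, was the gene that fell. It read 0.41, 0.45 and 0.17 in the controls and −0.17, −1.13 and −0.42 with cocoa, where array 2 was far the lowest. The log2 difference was −0.92 (SE 0.21, adjusted p = 0.0184). The gene passed in 4 of the 6 refits on 5 arrays (highest adjusted p 0.0716, without control array 2). Its call was lost with the 18S signal, which was also highest on cocoa array 2, as a covariate (0.0998). Of its 3 probe sets, 203625_x_at read −0.20, −0.22 and −0.23 with cocoa (difference −0.51, limma adjusted p over probe sets 0.00672). Array 2 was far the lowest on 203626_s_at (−1.13, 0.106) and 210567_s_at (−1.12, 0.0322). Of 18 interferon genes 1 rose (5.56% called against 13.5% of all genes). This was IFNL2 (0.37, SE 0.10), which passed in 1 of the 6 refits on 5 arrays (adjusted p 0.0178 to 0.122). IFNB1 had a difference of −0.14 (SE 0.13, adjusted p = 0.558). Centred values do not show whether any interferon gene was expressed.

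The neighbours of the genes on the chromosome were measured as well. HERC6 and HERC5 lie next to each other on chromosome 4 in the RefSeq annotation. The 3 nearest measured genes on each side of each of the 6 genes came to 30 neighbours, since HERC5 and HERC6 share theirs. Of these 2 rose, 2 fell and 26 did not pass, with a median of −0.026, and the share called was 13.3% against 13.5% of all genes. Both that rose are the nearest measured neighbours of the HERC pair, 1 on each side. They are PPM1K, a mitochondrial phosphatase (0.39, SE 0.059, adjusted p = 0.00313), and NAP1L5 (0.51, SE 0.081, adjusted p = 0.00416). They passed in every fit without 1 array. HERC3, a relative at the same locus as NAP1L5, has only probe sets shared with another gene, which differed by 0.22 (adjusted p = 0.322) and −0.025 (0.938). TIMM10, near UBE2L6, fell (−0.37, SE 0.066) and passed in every fit without 1 array, but not with the 18S covariate (adjusted p = 0.058). PERM1, near ISG15, fell as well (−0.34, SE 0.084) and passed in 1 of the 6 refits on 5 arrays (adjusted p 0.0182 to 0.098) and not with the 18S covariate (0.101). The 6 neighbours of USP18 did not pass.

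**Figure D5:**
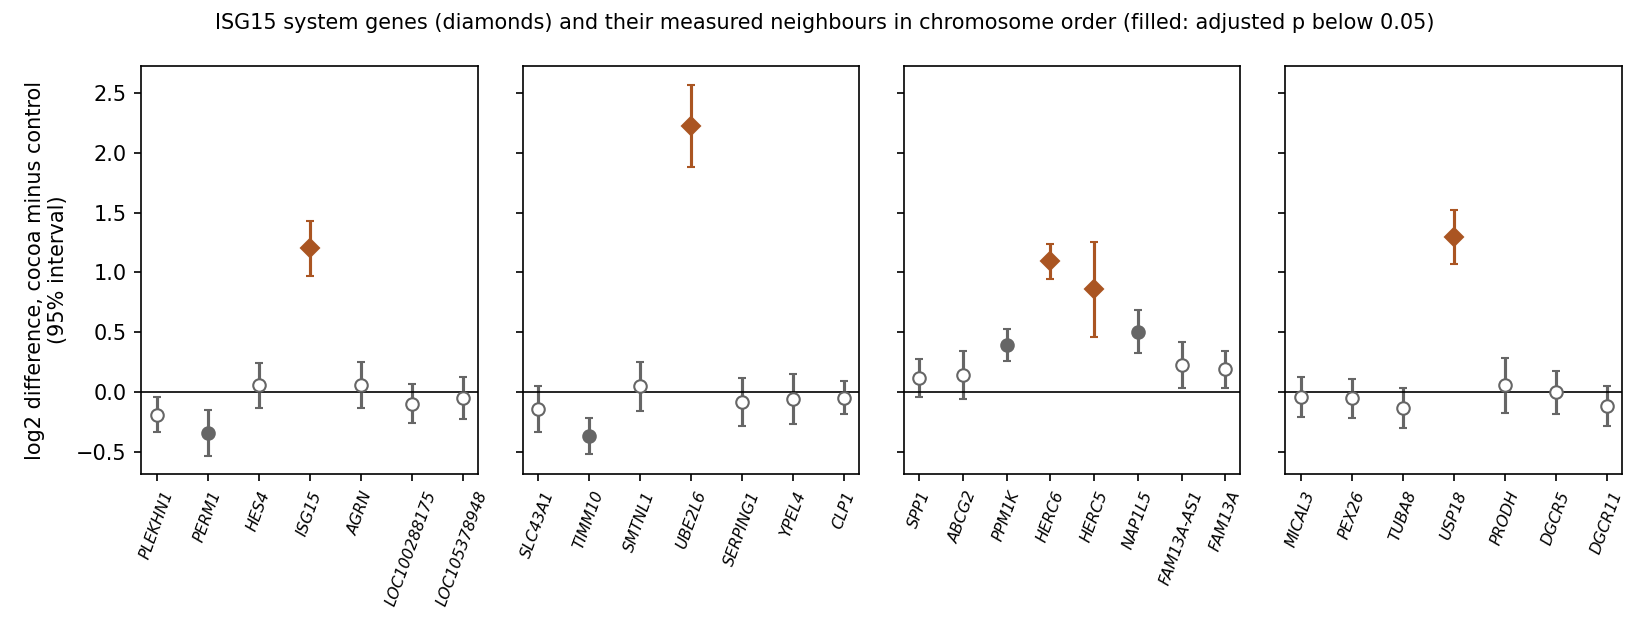
Log2 difference between cocoa and control with 95% intervals (y axis) of ISG15, UBE2L6, HERC6 with HERC5, and USP18 (diamonds) and of the 3 measured neighbours on each side in chromosome order (circles, filled where the adjusted p was below 0.05). The neighbours lie between −0.37 and 0.51, below the diamonds in every panel.

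The genes most like each of the 5 were those with the smallest root mean square difference over the 6 arrays, each gene centred on its own mean. USP18 was nearest to SELENBP1, a selenium-binding protein of differentiated epithelium (0.045), then to ISG15 itself (0.079) and PLSCR4 (0.091). ISG15 was nearest to SELENBP1 (0.055), PLSCR4 (0.059) and the protease inhibitor SLPI (0.078). UBE2L6 was nearest to 3 interferon targets, the nucleotide kinase CMPK2 (0.089), IFITM1 (0.095) and MX2 (0.11). HERC6 was nearest to TCEA3 (0.045), the angiotensin precursor AGT (0.055) and IFIT5 (0.058), and HERC5 to DHRS2 (0.098), CTTNBP2 (0.11) and the histone gene H2AC6 (0.15). These are the closest of all genes by selection, over 6 arrays in 2 groups.

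Markers of other cells were read for the same arrays. Of 12 markers of colon epithelium CDH17 (0.56, SE 0.12) and GPA33 (0.24, SE 0.068) rose (16.7% called, against 13.5% of all genes). They passed in 5 and 1 of the 6 fits without 1 array. The summed centred values of the 12 were between −0.64 and −0.25 on the controls and between −0.046 and 1.70 with cocoa. These groups did not overlap, and neither did those of 6417 of the 19775 single genes. Of 10 leukocyte markers CD14 rose (0.75, SE 0.11), a share called of 10%, and of 9 fibroblast markers none changed. The summed leukocyte markers were between −1.03 and −0.24 on the controls and between −0.53 and 0.81 with cocoa, and those of fibroblasts between −0.073 and 0.71 and between −0.32 and 0.060, so both overlapped. PTPRC, the common leukocyte antigen, had a difference of 0.010 (SE 0.068). Centred values do not show whether a marker is expressed, so the labelled cell type could not be checked, and the part of other cells in the result was not tested.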

How the data were processed

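The 6 arrays, 3 per group, were grouped by their sample titles. The deposited log2 table was made by the authors with RMA (background correction, quantile normalisation and probe summary), per the submitters' processing notes; the log base follows from RMA, and its version and any filter were not given in the sources. Its probe sets all centre on a median of 0 (within 5e-07), so it holds no levels and no detection calls. The number of arrays limits the precision.

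Of 54613 probe sets (62 control probe sets left out), 41091 had 1 symbol in the platform annotation, 1801 several and 11721 none. A gene was the mean of its probe sets with 1 symbol. Cocoa minus control was fitted in limma 3.58.1 (R 4.3.3) over all genes, or all probe sets, with Benjamini-Hochberg adjustment, a threshold of 0.05 and moderated standard errors. Intervals are 95%. Comparisons between genes used per-array differences, a pooled spread and an exact permutation test; those with class means were added after the values were seen.

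The 6 genes and all lists were chosen with earlier results of these data known. Besides the 6, genes were named by rule: up to 4 called members of each list by size, close relatives, TRIM25 and ARIH1, the 3 most similar genes and called neighbours; HERC1, HERC2, USP11, EIF2AK2, CHMP5, EIF4E2, IFNAR2, IFNB1, ITGAL, ITGB2 and PTPRC were added after their values were seen. Listed genes without a probe set of 1 symbol were not analysed here. No pairing of arrays by replicate number is stated. The correlation of deviations over genes was −0.12, −0.0089 and −0.0031 for same-numbered arrays, which cannot settle whether cultures were handled in pairs. No arrays were copies (SD of differences 0.14 to 0.29). On simulated data with 50 of 19775 genes changed at each size, 66% were recovered at a log2 change of 0.5, 96% at 1 and 100% at 2. Python 3.11.15 and matplotlib 3.10.9 made tables and figures.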

Additional observations from a re-analysis of the deposited data

Results flagged for a closer look

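Signal outside the genes compared above was found on the probe sets shared by UBA7 and MIR5193, which the rule of 1 symbol leaves out. On 1294_at all cocoa arrays lay above all control arrays, with a log2 difference of 0.61 (SE 0.12), and on 203281_s_at likewise, with 0.68 (SE 0.11). Cocoa arrays lay wholly above the controls in 15.4% of genes as well. No group had enough arrays for a test of single outlying arrays.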

How the results depend on the processing

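The rises of ISG15, UBE2L6, HERC6 and USP18 kept their direction and their call in every setting that could measure them; ISG15 was not measured without probe sets of suffix _s_at or _x_at, where 4 of 4 measured genes passed. Only HERC5 lost its call, under the stricter threshold of 0.01, with the 18S covariate (0.94) and in 1 of the fits without 1 array (difference 0.64 to 0.97; adjusted p 0.0149 to 0.0541, the highest without control array 2). The count of the 5 genes was 4 or 5 in all planned settings, and 6 of 6 when, in a setting added after the annotation was seen, the shared probe sets were counted as UBA7. The replicate block, which rests on replicate numbers without a stated pairing, gave 1947 changed genes, kept all 5 and changed no call of these genes. The background moved more: 2666 genes changed, against 1103 with the 18S covariate, 1411 with the 5′ to 3′ covariate, 1152 at an adjusted p of 0.01 and 1315 to 2881 without 1 array (1315 without control array 2, 1623 without control array 1). Under the 18S covariate 71.4% of called genes were higher, against 54.6%. The counts of the other lists moved too: of 15 that were above 0, recomputed in 16 settings each, 132 of 240 values stayed within 1.5 times. Array weights, a robust prior, quantile normalisation, median centring and the median of probe sets were also run. No levels exist to judge signal over background.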

Other observations

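Probe sets of several genes beside the ISG15 system differed as those of HERC6 did. Of the 5 probe sets of PPM1K, the phosphatase gene next to HERC6, 226773_at and 235061_at had log2 differences of 0.93 and 0.80 (limma adjusted p over probe sets 0.00216 and 0.00246), while the other 3 lay between 0.044 and 0.12 and did not pass. TCEA3, the gene most like HERC6 over the arrays, had 1.89 on 226388_at (0.000109) and 0.21 on 241976_at (0.17). The likeness of TCEA3 to HERC6 thus holds for means of unlike probe sets in both genes. GABARAPL1 had 1.21 on 208869_s_at and 0.43 on 208868_s_at, and both passed. The 6 probe sets of ARIH1 ran from −0.40 to 0.32, and 1 of them, 201881_s_at, passed (0.0226). The 3 probe sets of RIGI were alike, between 1.5 and 1.65, and all passed.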
